A study of Arabidopsis thaliana with 10 samples.

Results

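The UBP and UCH deubiquitinase family of Arabidopsis thaliana was followed here through 30 loci, the ubiquitin-specific proteases UBP1 to UBP27 and the ubiquitin C-terminal hydrolases UCH1 to UCH3, out of 33557 genes listed for each library. The members were taken by locus, from the family's names and by no cut on a measured value. They were chosen with earlier results of these data known. The 10 libraries of poly(A) RNA came from whole Columbia (Col-0) seedlings aged 4 days, all kept under weak constant blue light (1 µmol m-2 s-1), with 2 biological replicates of each of 5 genotypes. These were cry2-1, a mutant of the blue light receptor CRY2; CRY2oe, an overexpressor of CRY2; UBP13oe, an overexpressor of UBP13; ubp12ubp13, a double mutant of UBP12 and UBP13; and the wild type (WT). By its title, the study asks how UBP12 and UBP13 act on the stability of CRY2 and on growth. The promoters and number of lines behind the overexpressors, and the alleles combined in ubp12ubp13, are not given in the sources used here. Nothing in the labels says how the biological replicates were grown apart, so p-values measure the spread between these libraries only.

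Ubiquitin is a small protein that cells attach to other proteins, often as chains that send the target to the proteasome, and deubiquitinases cut it off again. UBP and UCH enzymes both do this with a cysteine in their active site. UBP enzymes form the largest deubiquitinase class in plants and act on substrates from histone H2B to light receptors, and UCH enzymes are small proteases best known for trimming short extensions from ubiquitin. Within the family UBP12 and UBP13 are a pair of large enzymes with a substrate-binding MATH domain, and in Arabidopsis they are known for roles in the clock, flowering, jasmonate signalling and organ size.

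Several members are close copies, which bears on how well short fragments can be told apart, and the sequences below show the strongest case beside the pair the study is about. In an alignment of the annotated coding sequences (RefSeq, TAIR10.1), UBP12 and UBP13 were identical at 86.3% of aligned positions, with a longest shared run of 38 bases. UBP9 and UBP10 were identical at 95.6%, with a shared run of 238 bases. The other named pairs were at 86.4% for UBP3 and UBP4, 85.4% for UBP6 and UBP7, 70.7% for UCH1 and UCH2, 69.9% for UBP1 and UBP2 and 65.9% for UBP20 and UBP21. Each coding stretch below is 90 bases long. The UBP12 stretch lies at chr5:2025478-2025567 and the UBP13 stretch at chr3:3768016-3768105, both on the minus strand of TAIR10.1, and capitals mark the 4 bases at which they differ.
UBP12: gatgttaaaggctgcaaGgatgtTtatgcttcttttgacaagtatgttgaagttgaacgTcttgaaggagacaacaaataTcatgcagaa
UBP13: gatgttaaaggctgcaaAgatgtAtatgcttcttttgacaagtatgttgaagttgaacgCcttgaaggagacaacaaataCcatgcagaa
The stretch of UBP9 at chr4:6526306-6526395 (minus strand) and that of UBP10 at chr4:6541573-6541662 (minus strand) have the same letters throughout, so a fragment from within it has no base that tells the copies apart.
UBP9: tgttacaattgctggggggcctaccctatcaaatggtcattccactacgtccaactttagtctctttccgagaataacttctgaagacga
UBP10: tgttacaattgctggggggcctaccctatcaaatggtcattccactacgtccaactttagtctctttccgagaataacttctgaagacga
Levels of UBP9 and UBP10 are therefore uncertain as a split between the copies. UBP4, UBP15 and UCH1 each overlap another locus in the files (AT2G22300, AT1G17100 and AT5G16300), and their levels may hold fragments of it.

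The genes altered by design come first, as a check of the labels, and gene positions in parentheses are those of the files on TAIR10. UBP13 (AT3G11910, chr3:3761388-3770563) stood at 69.0 and 66.1 FPKM in UBP13oe, 24.2 and 23.6 in ubp12ubp13, 36.9 and 36.0 in cry2-1 and 32.5 and 34.3 in CRY2oe, against 27.1 and 28.3 FPKM in WT. Both UBP13oe libraries lay far above all others, and both ubp12ubp13 libraries lay just below the WT libraries without overlap. UBP13 rose in UBP13oe (log2 fold change 1.26 ± 0.05, adjusted p = 1.46e-05, by limma on log2(FPKM + 1) across all genes, which also gives every adjusted p below) and fell in ubp12ubp13 (-0.20 ± 0.05, adjusted p = 0.00664). The fall left a UBP13 mean of 23.9 ± 0.416 FPKM in ubp12ubp13, against 27.7 ± 0.833 FPKM in WT (SD, n = 2 each). FPKM scales fragments to the size of a library and the length of a transcript, and does not say whether a transcript is whole. UBP13 also rose in cry2-1 (0.39 ± 0.05, adjusted p = 0.000468) and in CRY2oe (0.26 ± 0.05, adjusted p = 0.00676, or 0.0539 without CRY2oe replicate 2).

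UBP12 (AT5G06600, chr5:2019107-2027945) stood at 44.4 and 46.6 FPKM in UBP13oe, 397 in ubp12ubp13 replicate 1, 48.2 and 46.5 in cry2-1 and 35.01 and 33.2 in CRY2oe, against 35.01 and 34.8 FPKM in WT. In ubp12ubp13 replicate 2 the authors' table marks the UBP12 estimate as failed. The only value for the double mutant was thus the highest UBP12 level in the set, beside a missing one, and it goes against the label of a UBP12 mutant as a level of RNA. The deposited bounds of that value were 397.295 and 409 FPKM, so the value of 397.343 lay almost on its lower bound. In the same library 5039 genes lay above their own upper bound, so such bounds cannot be read as its error. Taking the failed entry as missing gave a log2 fold change of 3.47 in ubp12ubp13 (adjusted p = 2.08e-07) that rests on 1 library, and taking it as 0 turned it to -0.85 (adjusted p = 0.758). No level of UBP12 can therefore be given for the libraries labelled ubp12ubp13. UBP12 rose in cry2-1 (0.43 ± 0.05, adjusted p = 0.000466) and in UBP13oe (0.37 ± 0.05, adjusted p = 0.00104), where both libraries of each lay above both WT libraries, while CRY2oe and WT overlapped (-0.03 ± 0.05, adjusted p = 0.653). With the failed entry taken as 0 these fold changes stayed as they were, since the libraries compared hold no failed entry, but the spread shared by all 10 libraries grew and both calls were lost (adjusted p = 0.892 in cry2-1 and 0.904 in UBP13oe). CRY2, the receptor itself, stood at 96.5 and 96.2 FPKM in UBP13oe, 84.0 and 87.7 in ubp12ubp13, 0 and 0.0187 in cry2-1 and 3923 and 3808 in CRY2oe, against 109.8 and 120.0 FPKM in WT. Its levels followed the labels of cry2-1 and CRY2oe, and CRY2 also fell in ubp12ubp13 (-0.41 ± 0.05, adjusted p = 0.000194). Both UBP13oe libraries likewise lay below both WT libraries.

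**Figure D1:**
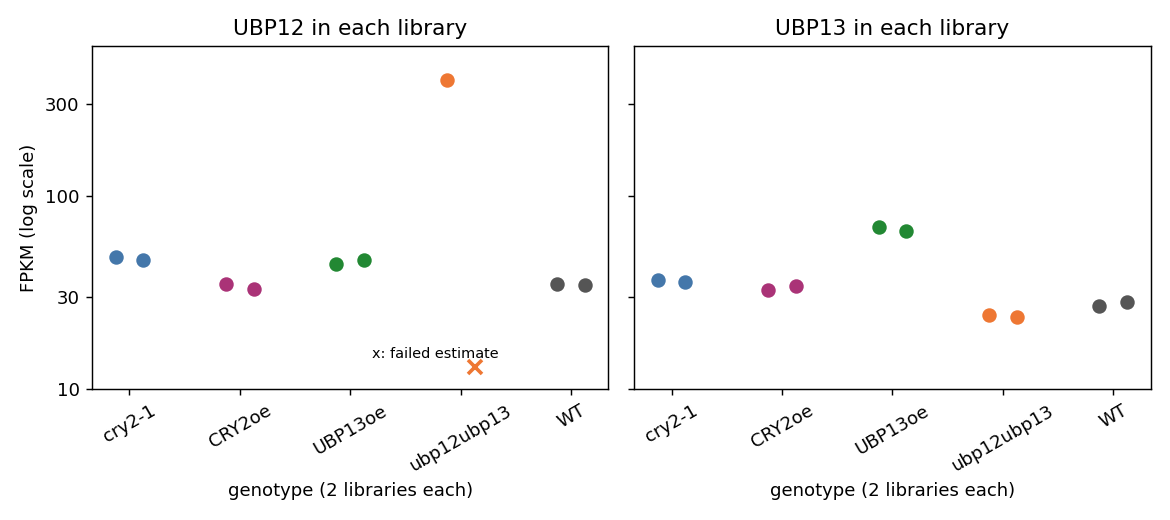
FPKM of UBP12 and UBP13 on a log axis in each library by genotype, with 1 point a library and a cross for the failed estimate, whose height carries no value. UBP13 is highest in UBP13oe at 69.0 and 66.1 FPKM, and UBP12 in ubp12ubp13 has 1 value of 397 FPKM beside a failed estimate.

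The stretch of 250 bases before each of these gene starts is printed because UBP12 and UBP13 both rose in cry2-1. In CRY2oe UBP13 passed the test and UBP12 did not, a difference between the genes that was not tested. The UBP12 call in cry2-1 was lost with the failed entry taken as 0 (adjusted p = 0.892). UBP13 is overexpressed by design in UBP13oe, so its level there is not set beside these bases. A search on both strands used CACGTG, the G-box that many light-regulated transcription factors bind, and AAATATCT, the evening element of clock-regulated genes. UBP13, at chr3:3770564-3770813 on the minus strand of TAIR10.1, held 2 matches to CACGTG, in capitals, starting 79 and 68 bases before the annotated start. UBP12, at chr5:2028117-2028366 on the minus strand, held none.
UBP12: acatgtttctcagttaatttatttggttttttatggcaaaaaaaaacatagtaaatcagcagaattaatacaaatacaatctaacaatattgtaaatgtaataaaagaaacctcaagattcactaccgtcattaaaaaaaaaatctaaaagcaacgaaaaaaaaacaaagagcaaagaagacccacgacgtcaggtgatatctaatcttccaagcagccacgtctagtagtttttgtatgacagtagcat
UBP13: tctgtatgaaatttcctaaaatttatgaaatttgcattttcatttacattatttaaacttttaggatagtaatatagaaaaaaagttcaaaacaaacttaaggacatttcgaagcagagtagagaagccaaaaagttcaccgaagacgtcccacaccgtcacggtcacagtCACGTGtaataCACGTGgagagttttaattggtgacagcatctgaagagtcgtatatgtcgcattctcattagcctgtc
UBP13 was the 1 member of 30 with a CACGTG match in that window (3.33%), against 1780 of 27443 genes (6.49%). AAATATCT was found before 0 of the 30 members and before 4.79% of genes. A match is a string of letters and is not evidence of binding.

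In WT seedlings the family spanned a wide range of FPKM. UBP3, which with UBP4 is needed for pollen development, was highest at 37.9 ± 0.9701 FPKM (mean ± SD, n = 2 for all such values), followed by UBP12 at 34.9, UBP6 at 28.4, UBP13 at 27.7 and UBP23 at 24.5. The WT libraries of UBP6 and UBP13 overlapped (SDs of 0.733 and 0.833), while those of UBP3, UBP12 and UBP6 did not. UCH3, UBP14, UCH2, UBP24 and UBP5 came next with means between 22.0 and 13.02 FPKM. At the low end stood UBP17 at 2.26 ± 0.0555 FPKM and UBP21 at 1.78 ± 0.0235 FPKM. UBP11 (AT1G32850, chr1:11902629-11906900) was between 0.0132 and 0.147 FPKM across the 10 libraries and UBP1 between 0 and 0.0316 FPKM. By counting error alone, 3 fragments on 1 kb of transcript correspond to 0.0961 to 0.189 FPKM in libraries of 31.2 to 15.9 M fragments, so UBP1 lay under that floor in every library and UBP11 around it. A longer transcript has a lower floor, and the coding sequence of UBP1 alone has 3252 bases. Floors at each gene's own length were not computed. The other 28 members had at least 1 FPKM in every library with an estimate, UBP12 lacking 1 in ubp12ubp13 replicate 2, and were tested.

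**Figure D2:**
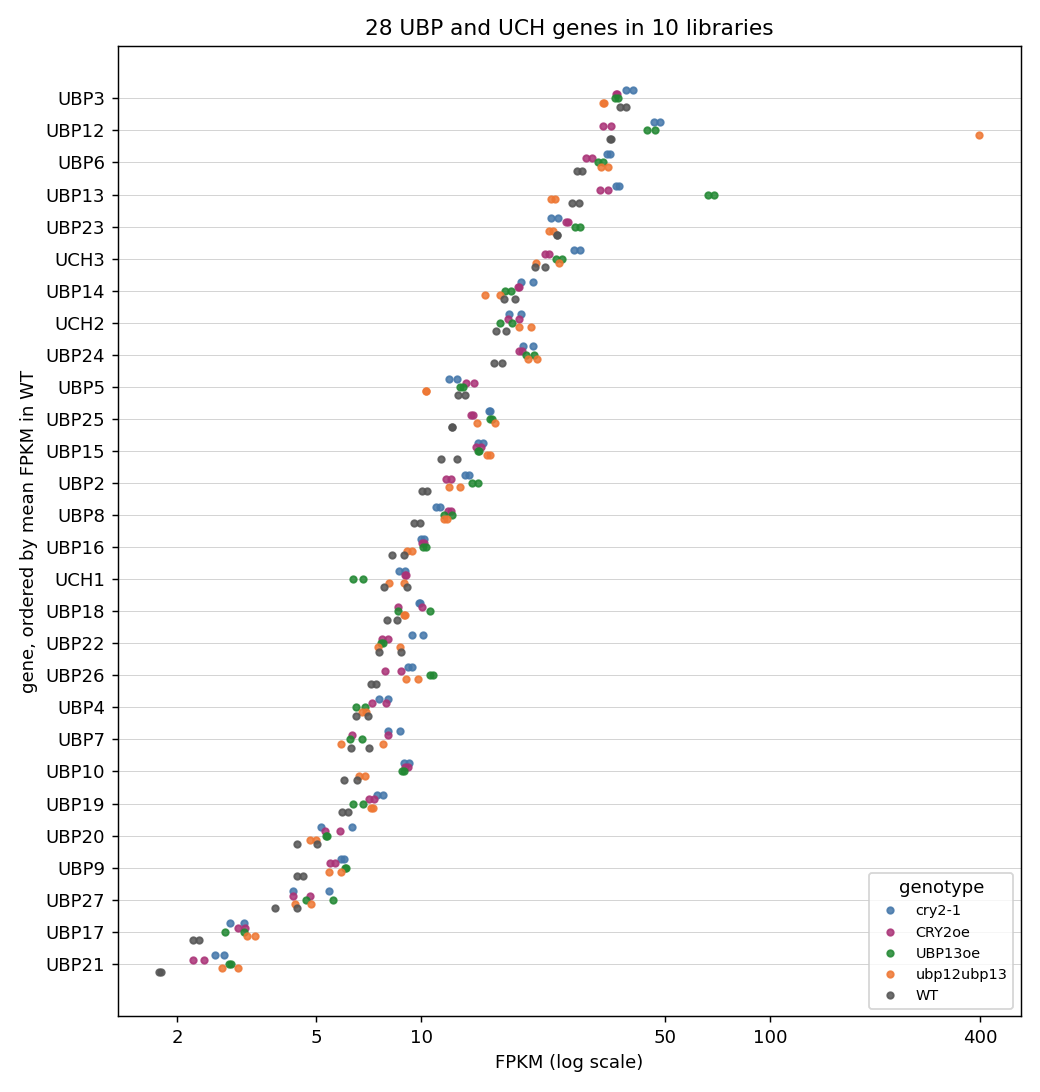
FPKM of the 28 tested members in each of the 10 libraries on a log axis, ordered by WT mean, with 1 point a library coloured by genotype. UBP3 leads in WT at 37.9 FPKM, UBP21 is lowest at 1.78 FPKM, and the ubp12ubp13 value of UBP12 stands alone at 397 FPKM.

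Across genotypes the family's levels were mostly higher in the mutants and overexpressors than in WT, but how many members passed the test depended on the scale between libraries. In cry2-1, 16 of 28 members rose and 0 fell, where 31.7% of all tested genes rose and 11.8% fell. In CRY2oe, 10 rose and 0 fell (16.5% and 9.63% of all genes). In UBP13oe, 15 rose and 1 fell (35.2% and 8.74% of all genes). In ubp12ubp13, 13 rose and 3 fell (34.6% and 22.2% of all genes), UBP12 being 1 of the 13 on a single library. The median log2 fold change over the 28 members was 0.27 in cry2-1, 0.16 in CRY2oe, 0.21 in UBP13oe and 0.12 in ubp12ubp13, beside medians over all tested genes of 0.12, 0.05, 0.15 and 0.09 for the same genotypes.

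Because the median of all genes was itself above 0, the libraries were also rescaled by the median of ratios between them, which put the WT libraries' factors at 0.932 and 0.942 and the others at 0.984 to 1.06. On that scale 7 members rose and 2 fell in cry2-1 (16.8% and 20.2% of all genes), 4 and 1 in CRY2oe (11.1% and 14.8%), 8 and 2 in UBP13oe (18.2% and 18.6%) and 11 and 5 in ubp12ubp13 (28.5% and 27.7%). The members that rose on both scales were UBP2, UBP9, UBP10, UBP12, UBP13, UBP21 and UBP25 in cry2-1, and the same members plus UBP26 in UBP13oe. In CRY2oe they were UBP8, UBP10, UBP13 and UBP15. In ubp12ubp13 they were UBP2, UBP6, UBP8, UBP9, UBP15, UBP17, UBP21, UBP24, UBP25 and UBP26, and UBP12 on its 1 library, a value that rescaling cannot check. UBP3, UBP5 and UBP13 fell there on both scales. The 4 comparisons share the WT libraries. When each library was left out in turn, 11 of 16 calls held in cry2-1, 1 of 10 in CRY2oe (UBP10), 11 of 16 in UBP13oe and 12 of 16 in ubp12ubp13, where UBP12 has no value without ubp12ubp13 replicate 1. Some calls were gained in the same way, for UBP20 in cry2-1 (adjusted p = 0.0386 without cry2-1 replicate 2), UBP22 in cry2-1 (0.0335 without WT replicate 2), UBP18 in UBP13oe (0.0419 without UBP13oe replicate 1), and, without either ubp12ubp13 library, UBP22 in cry2-1 (up to 0.0486), UBP25 in CRY2oe (up to 0.0306) and UCH3 in UBP13oe (up to 0.0335). In whole seedlings, a different share of a cell type and a different amount of RNA per cell cannot be told apart.

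**Figure D3:**
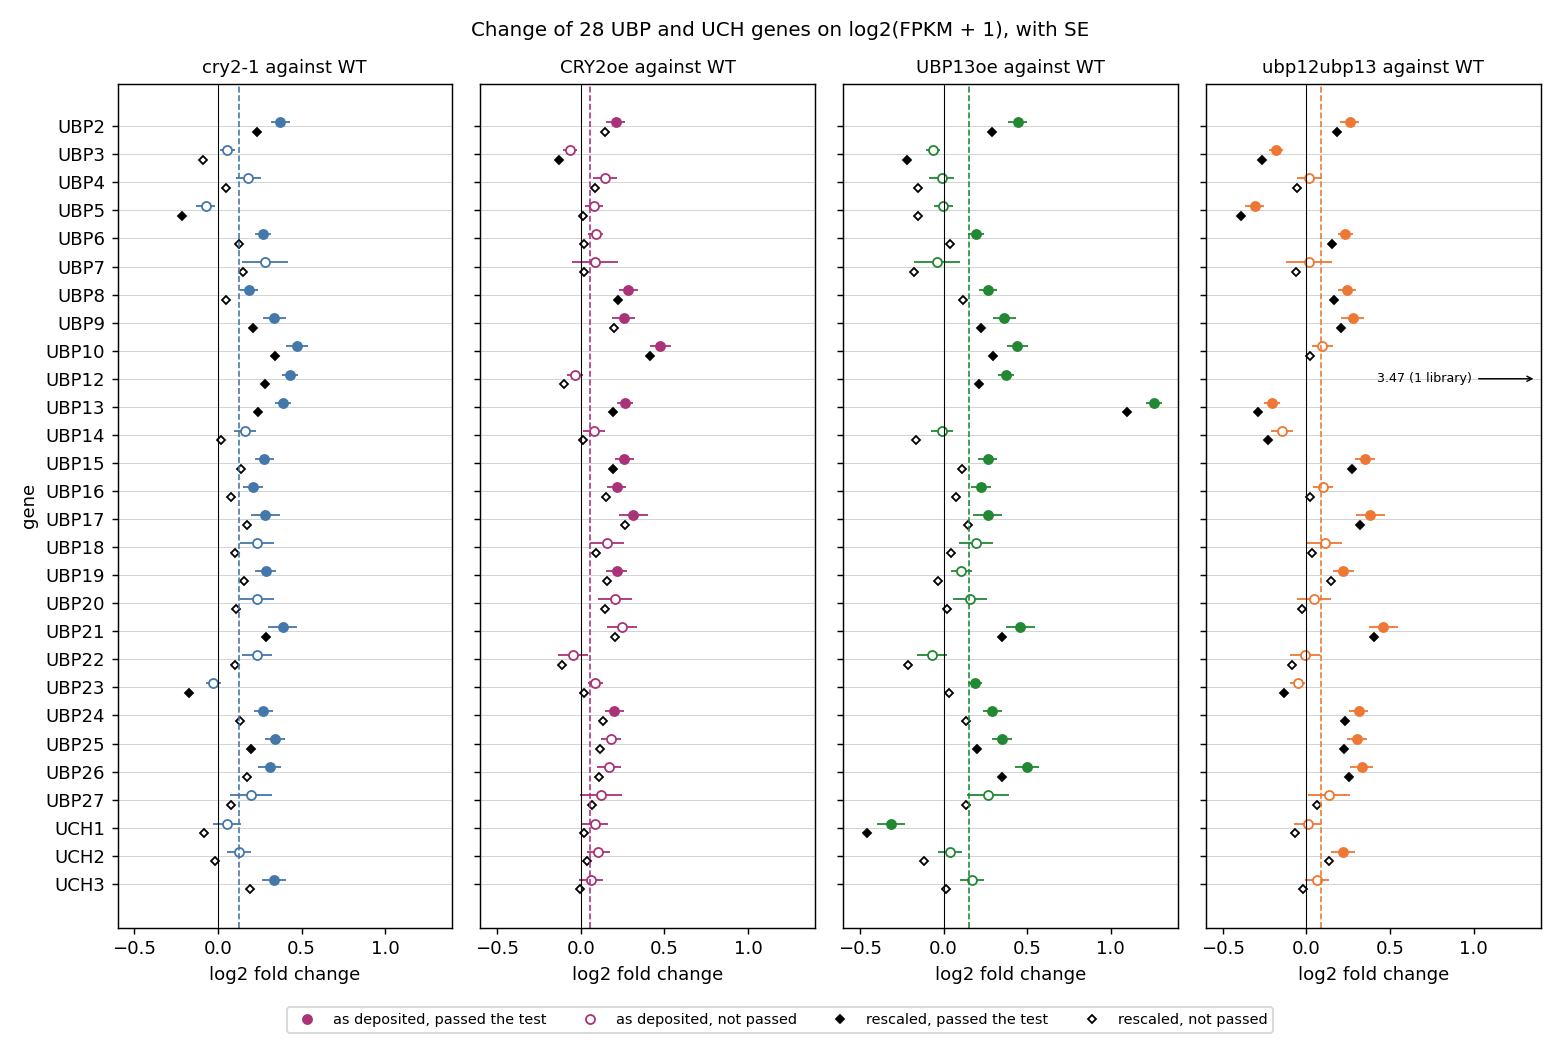
Log2 fold change of the 28 tested members in each of the 4 genotypes against WT, as deposited (circles, with standard errors) and rescaled (diamonds), filled where the adjusted p was under 0.05, with a dashed line at the median of all tested genes as deposited. Diamonds lie left of the circles, the 3 members that fell in ubp12ubp13 are UBP3, UBP5 and UBP13, and UBP12 in ubp12ubp13 (3.47, 1 library) lies off the axis.

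The first class holds UBP1 and UBP2, which were found through resistance to the arginine analogue canavanine. UBP1 (AT2G32780, chr2:13898431-13901870) was close to absent in all libraries. UBP2 (AT1G04860, chr1:1369054-1373101) stood at 14.51 and 14.0 FPKM in UBP13oe, 11.98 and 12.9 in ubp12ubp13, 13.7 and 13.4 in cry2-1 and 11.8 and 12.2 in CRY2oe, against 10.07 and 10.4 FPKM in WT. No WT library overlapped with any other genotype, and UBP2 rose in UBP13oe (0.44 ± 0.06, adjusted p = 0.000738), in cry2-1 (0.37 ± 0.06, adjusted p = 0.00132) and in ubp12ubp13 (0.26 ± 0.06, adjusted p = 0.00495). Its rise in CRY2oe (0.21 ± 0.06, adjusted p = 0.0306) was lost after rescaling (adjusted p = 0.0948) and without 1 of 4 libraries (without WT replicate 1 at 0.105, WT replicate 2 at 0.0629, CRY2oe replicate 1 at 0.0884 or CRY2oe replicate 2 at 0.149).

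UBP3 and UBP4 are small nuclear enzymes. UBP3 (AT4G39910, chr4:18511575-18514338) stood at 35.9 and 36.6 FPKM in UBP13oe, 33.5 and 33.1 in ubp12ubp13, 40.4 and 38.5 in cry2-1 and 36.4 and 36.0 in CRY2oe, against 37.2 and 38.6 FPKM in WT. It was lowest in ubp12ubp13, below every other library, and fell there (-0.18 ± 0.04, adjusted p = 0.00687). On rescaled values UBP3 also fell in UBP13oe (-0.22, adjusted p = 0.00416) and CRY2oe (-0.13, adjusted p = 0.0445). UBP4 (AT2G22310, chr2:9476578-9478959) lay between 6.49 and 8.04 FPKM and passed the test in no comparison on either scale.

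UBP5 (AT2G40930, chr2:17076312-17082433) stood at 12.9 and 13.1 FPKM in UBP13oe, 10.3 and 10.3 in ubp12ubp13, 11.99 and 12.7 in cry2-1 and 14.2 and 13.5 in CRY2oe, against 12.7 and 13.3 FPKM in WT. Both ubp12ubp13 libraries were the lowest of the 10, and the fall (-0.31 ± 0.06, adjusted p = 0.0018) also passed after rescaling (adjusted p = 0.000484), as UBP5 then did in cry2-1 (-0.21, adjusted p = 0.0181).

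UBP8 to UBP11 are close relatives with few known roles, and UBP11 was under the level tested. UBP10 (AT4G10590, chr4:6538541-6543448) stood at 8.79 and 8.92 FPKM in UBP13oe, 6.63 and 6.89 in ubp12ubp13, 9.22 and 8.93 in cry2-1 and 8.99 and 9.19 in CRY2oe, against 5.997 and 6.53 FPKM in WT. The cry2-1, CRY2oe and UBP13oe libraries formed a group well above WT, and ubp12ubp13 lay between them and WT. UBP10 rose in cry2-1 (0.47 ± 0.06, adjusted p = 0.000674), CRY2oe (0.47 ± 0.06, adjusted p = 0.00204) and UBP13oe (0.44 ± 0.06, adjusted p = 0.00114), and in ubp12ubp13 the difference was 0.10 (adjusted p = 0.225). UBP9 (AT4G10570, chr4:6523255-6528173), its near-identical copy, stood at 6.09 and 6.06 FPKM in UBP13oe, 5.44 and 5.90 in ubp12ubp13, 6.001 and 5.88 in cry2-1 and 5.67 and 5.48 in CRY2oe, against 4.41 and 4.59 FPKM in WT. All genotypes lay above WT, and UBP9 rose in cry2-1 (0.34 ± 0.07, adjusted p = 0.00504), in UBP13oe (0.36 ± 0.07, adjusted p = 0.00376), in ubp12ubp13 (0.28 ± 0.07, adjusted p = 0.00842, or 0.0516 without ubp12ubp13 replicate 2) and in CRY2oe (0.26 ± 0.07, adjusted p = 0.0278). The CRY2oe call was lost after rescaling (adjusted p = 0.0602) and without 1 of 4 libraries (without WT replicate 1 at 0.0971, WT replicate 2 at 0.0593, CRY2oe replicate 1 at 0.131 or CRY2oe replicate 2 at 0.0936).

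UBP8 (AT5G22030, chr5:7289703-7296344) stood at 12.2 and 11.6 FPKM in UBP13oe, 11.6 and 11.8 in ubp12ubp13, 11.3 and 11.04 in cry2-1 and 11.9 and 12.2 in CRY2oe, against 9.92 and 9.53 FPKM in WT. Every library of the 4 other genotypes lay above both WT libraries. UBP8 rose in CRY2oe (0.29 ± 0.05, adjusted p = 0.00812, or 0.0576 without CRY2oe replicate 2), in UBP13oe (0.27 ± 0.05, adjusted p = 0.00548) and in ubp12ubp13 (0.25 ± 0.05, adjusted p = 0.00522). In cry2-1 its rise (0.18 ± 0.05, adjusted p = 0.0256) was lost without a single library in 3 cases (without WT replicate 2 at 0.102, cry2-1 replicate 1 at 0.119 or cry2-1 replicate 2 at 0.0668). Rescaling kept the calls in CRY2oe and ubp12ubp13 and lost those in cry2-1 (adjusted p = 0.542) and UBP13oe (0.14).

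UBP6 and UBP7 carry a ubiquitin-like domain, and UBP6 binds calmodulin. UBP6 (AT1G51710, chr1:19175642-19179967) stood at 33.2 and 32.0 FPKM in UBP13oe, 32.8 and 34.3 in ubp12ubp13, 34.8 and 33.9 in cry2-1 and 29.7 and 30.8 in CRY2oe, against 27.9 and 28.9 FPKM in WT. It was above WT in every other library, by least in CRY2oe, and rose in cry2-1 (0.27 ± 0.05, adjusted p = 0.00242), ubp12ubp13 (0.23 ± 0.05, adjusted p = 0.003) and UBP13oe (0.20 ± 0.05, adjusted p = 0.0109). The UBP13oe call was lost without UBP13oe replicate 1 (adjusted p = 0.067), and after rescaling only ubp12ubp13 passed (adjusted p = 0.0234). UBP7 (AT3G21280, chr3:7477987-7482070) lay between 5.88 and 8.69 FPKM and passed nowhere. UBP14 (AT3G20630, chr3:7202773-7208402), which takes apart free ubiquitin chains and is needed by the embryo, lay between 15.3 and 20.9 FPKM and passed in no comparison against WT as deposited (adjusted p = 0.0901 in ubp12ubp13, or 0.046 without ubp12ubp13 replicate 2). On rescaled values it fell in ubp12ubp13 (-0.23, adjusted p = 0.0152).

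UBP15 to UBP19 share a MYND zinc finger. UBP15 (AT1G17110, chr1:5845660-5850934), which promotes cell proliferation and leaf size, stood at 14.6 and 14.7 FPKM in UBP13oe, 15.8 and 15.4 in ubp12ubp13, 14.54 and 15.01 in cry2-1 and 14.4 and 14.8 in CRY2oe, against 11.4 and 12.6 FPKM in WT. All other libraries lay above WT, ubp12ubp13 highest, and UBP15 rose in ubp12ubp13 (0.35 ± 0.06, adjusted p = 0.00117), cry2-1 (0.28 ± 0.06, adjusted p = 0.0059), UBP13oe (0.26 ± 0.06, adjusted p = 0.00783) and CRY2oe (0.26 ± 0.06, adjusted p = 0.0148). The CRY2oe call was lost without 1 of 3 libraries (without WT replicate 1 at 0.0618, CRY2oe replicate 1 at 0.0534 or CRY2oe replicate 2 at 0.0898), and those in cry2-1 and UBP13oe were lost on rescaling (adjusted p = 0.0908 and 0.161).

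UBP16 (AT4G24560, chr4:12679210-12684939), which is known for salt tolerance, stood at 10.3 and 10.09 FPKM in UBP13oe, 9.41 and 9.12 in ubp12ubp13, 10.2 and 9.99 in cry2-1 and 10.2 and 10.04 in CRY2oe, against 8.27 and 8.89 FPKM in WT. WT was lowest without overlap, yet each of its 3 calls was lost without 1 of 3 libraries and none passed after rescaling. These were cry2-1 (0.21 ± 0.06, adjusted p = 0.0191, lost without WT replicate 1 at 0.0944, cry2-1 replicate 1 at 0.089 or cry2-1 replicate 2 at 0.0619), CRY2oe (0.21 ± 0.06, adjusted p = 0.0293, lost without WT replicate 1 at 0.121, CRY2oe replicate 1 at 0.125 or CRY2oe replicate 2 at 0.11) and UBP13oe (0.22 ± 0.06, adjusted p = 0.0151, lost without WT replicate 1 at 0.0734, UBP13oe replicate 1 at 0.0726 or UBP13oe replicate 2 at 0.0564).

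UBP17 (AT5G65450, chr5:26157863-26161096) stood at 2.75 and 3.10 FPKM in UBP13oe, 3.33 and 3.18 in ubp12ubp13, 3.11 and 2.84 in cry2-1 and 2.99 and 3.13 in CRY2oe, against 2.30 and 2.22 FPKM in WT. All other libraries lay above both WT libraries. UBP17 rose in ubp12ubp13 (0.38 ± 0.09, adjusted p = 0.00599), which held on both scales and without any single library. At this low level its rises in cry2-1 (0.28 ± 0.09, adjusted p = 0.0304, lost without WT replicate 1 at 0.0699, WT replicate 2 at 0.0987, cry2-1 replicate 1 at 0.151 or cry2-1 replicate 2 at 0.0561), CRY2oe (0.32 ± 0.09, adjusted p = 0.0324, lost without WT replicate 1 at 0.0749, WT replicate 2 at 0.102, CRY2oe replicate 1 at 0.0971 or CRY2oe replicate 2 at 0.148) and UBP13oe (0.26 ± 0.09, adjusted p = 0.0394, lost without any 1 of the 10 libraries, at adjusted p up to 0.205) were not held by all libraries, and none of the 3 passed after rescaling.

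UBP19 (AT2G24640, chr2:10475210-10479454), which is needed for embryo development, stood at 6.39 and 6.81 FPKM in UBP13oe, 7.29 and 7.16 in ubp12ubp13, 7.75 and 7.45 in cry2-1 and 7.33 and 7.06 in CRY2oe, against 5.94 and 6.18 FPKM in WT. It was lowest in WT without overlap, and rose in cry2-1 (0.29 ± 0.06, adjusted p = 0.00796, or 0.0526 without cry2-1 replicate 1), in ubp12ubp13 (0.22 ± 0.06, adjusted p = 0.0181, lost without WT replicate 1 at 0.0757, ubp12ubp13 replicate 1 at 0.0683 or ubp12ubp13 replicate 2 at 0.0504) and in CRY2oe (0.22 ± 0.06, adjusted p = 0.0413, lost without any 1 of the 10 libraries, at adjusted p up to 0.176). None of the 3 passed on the rescaled values. UBP18 (AT4G31670, chr4:15335867-15339591) lay between 7.95 and 10.6 FPKM and passed in no comparison.

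UBP20 and UBP21 are a pair of relatives at low level. UBP21 (AT5G46740, chr5:18965271-18968742) stood at 2.85 and 2.80 FPKM in UBP13oe, 2.98 and 2.68 in ubp12ubp13, 2.72 and 2.56 in cry2-1 and 2.39 and 2.22 in CRY2oe, against 1.80 and 1.77 FPKM in WT. WT was lowest, and UBP21 rose in ubp12ubp13 (0.46 ± 0.09, adjusted p = 0.00232), UBP13oe (0.46 ± 0.09, adjusted p = 0.00394) and cry2-1 (0.39 ± 0.09, adjusted p = 0.00801, or 0.0506 without cry2-1 replicate 1), on both scales. UBP20 (AT4G17895, chr4:9939695-9942772) lay between 4.41 and 6.31 FPKM and passed nowhere.

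UBP22 and UBP26 both remove ubiquitin from histone H2B. UBP26 (AT3G49600, chr3:18380549-18387128), known for its part in gene silencing and seed development, stood at 10.6 and 10.8 FPKM in UBP13oe, 9.82 and 9.01 in ubp12ubp13, 9.14 and 9.38 in cry2-1 and 8.76 and 7.88 in CRY2oe, against 7.16 and 7.40 FPKM in WT. UBP13oe was highest and WT lowest, with no overlap between WT and any other genotype. UBP26 rose in UBP13oe (0.50 ± 0.07, adjusted p = 0.00103), ubp12ubp13 (0.33 ± 0.07, adjusted p = 0.00404) and cry2-1 (0.31 ± 0.07, adjusted p = 0.00799), the last of which was lost on rescaling (adjusted p = 0.0822). UBP22 (AT5G10790, chr5:3410539-3412633) lay between 7.51 and 10.11 FPKM and passed in no comparison against WT. Of its module partners, the adaptor proteins SGF11 and ENY2, SGF11 rose in cry2-1 (0.20 ± 0.06, adjusted p = 0.0209, lost without WT replicate 1 at 0.0839, cry2-1 replicate 1 at 0.087 or cry2-1 replicate 2 at 0.0747) and 0 of 2 passed in the other genotypes. On the rescaled values neither passed in cry2-1 or CRY2oe, and SGF11 fell in UBP13oe and in ubp12ubp13 (adjusted p = 0.00691 and 0.0139). SGF11 was named after its values were seen, since the count is small.

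UBP23, UBP24, UBP25 and UBP27 complete the UBP enzymes. UBP25 (AT3G14400, chr3:4811532-4815515) stood at 15.7 and 16.0 FPKM in UBP13oe, 14.4 and 16.2 in ubp12ubp13, 15.7 and 15.8 in cry2-1 and 13.9 and 14.1 in CRY2oe, against 12.2 and 12.2 FPKM in WT. Every other library lay above the WT libraries, and UBP25 rose in UBP13oe (0.35 ± 0.06, adjusted p = 0.00255), cry2-1 (0.34 ± 0.06, adjusted p = 0.00272) and ubp12ubp13 (0.30 ± 0.06, adjusted p = 0.003) on both scales.

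UBP24 (AT4G30890, chr4:15036052-15039281), which acts in abscisic acid responses and stomatal closure, stood at 20.0 and 21.1 FPKM in UBP13oe, 20.2 and 21.5 in ubp12ubp13, 20.9 and 19.6 in cry2-1 and 19.4 and 19.1 in CRY2oe, against 16.2 and 17.0 FPKM in WT. WT was again lowest, and UBP24 rose in ubp12ubp13 (0.31 ± 0.06, adjusted p = 0.00195), UBP13oe (0.29 ± 0.06, adjusted p = 0.00463), cry2-1 (0.27 ± 0.06, adjusted p = 0.00591) and CRY2oe (0.20 ± 0.06, adjusted p = 0.0354, lost without WT replicate 1 at 0.135, WT replicate 2 at 0.0526, CRY2oe replicate 1 at 0.143 or CRY2oe replicate 2 at 0.117). After rescaling only ubp12ubp13 passed (adjusted p = 0.00563).

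UBP23 (AT5G57990, chr5:23470014-23474104) stood at 27.6 and 28.5 FPKM in UBP13oe, 23.3 and 23.9 in ubp12ubp13, 23.5 and 24.6 in cry2-1 and 25.9 and 26.3 in CRY2oe, against 24.5 and 24.5 FPKM in WT. Both CRY2oe and UBP13oe lay above the WT libraries, and UBP23 rose in UBP13oe (0.19 ± 0.04, adjusted p = 0.0104), a call lost after rescaling (adjusted p = 0.614) and without UBP13oe replicate 2 (0.0686). On rescaled values UBP23 fell in cry2-1 (-0.17, adjusted p = 0.017) and in ubp12ubp13 (-0.13, adjusted p = 0.0292). UBP27 (AT4G39370, chr4:18306135-18308842), an enzyme of the mitochondrial outer membrane, lay between 3.80 and 5.59 FPKM and passed nowhere.

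The 3 UCH enzymes come last. UCH1 (AT5G16310, chr5:5342391-5344285), which with UCH2 affects shoot branching, stood at 6.38 and 6.82 FPKM in UBP13oe, 8.08 and 8.93 in ubp12ubp13, 8.60 and 8.996 in cry2-1 and 8.97 and 9.05 in CRY2oe, against 7.84 and 9.08 FPKM in WT. UBP13oe was the lowest genotype, and UCH1 fell there (-0.31 ± 0.08, adjusted p = 0.0159), on both scales, but not without 1 of 2 libraries (without WT replicate 2 at 0.0872 or UBP13oe replicate 1 at 0.0858). UCH2 (AT1G65650, chr1:24415015-24417709) stood at 16.8 and 18.2 FPKM in UBP13oe, 19.1 and 20.7 in ubp12ubp13, 19.3 and 17.8 in cry2-1 and 19.0 and 17.7 in CRY2oe, against 17.5 and 16.4 FPKM in WT. Both ubp12ubp13 libraries lay above WT, and UCH2 rose there (0.22 ± 0.07, adjusted p = 0.0295), a call lost on rescaling (adjusted p = 0.121) and without WT replicate 2 at 0.139 or ubp12ubp13 replicate 2 at 0.153. UCH3 (AT4G17510, chr4:9766971-9768770), known from the clock's period at high temperature, stood at 24.3 and 25.3 FPKM in UBP13oe, 21.3 and 24.8 in ubp12ubp13, 28.5 and 27.4 in cry2-1 and 23.2 and 22.7 in CRY2oe, against 22.7 and 21.2 FPKM in WT. Both cry2-1 libraries were the highest, and UCH3 rose in cry2-1 (0.34 ± 0.07, adjusted p = 0.00637), which was lost on rescaling (adjusted p = 0.0616).

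Ratios within a library do not depend on the scale between libraries, and were taken for the close pairs with no test. UBP13 over UBP12 was 1.55 and 1.42 in UBP13oe, 0.0608 in ubp12ubp13 replicate 1, 0.766 and 0.776 in cry2-1 and 0.928 and 1.03 in CRY2oe, against 0.773 and 0.813 in WT. The first cry2-1 ratio lay just below both WT ratios and the second between them, both CRY2oe ratios lay above WT, and both UBP13oe ratios were higher again. UBP10 over UBP9 was 1.44 and 1.47 in UBP13oe, 1.22 and 1.17 in ubp12ubp13, 1.54 and 1.52 in cry2-1 and 1.59 and 1.68 in CRY2oe, against 1.36 and 1.42 in WT. Only ubp12ubp13 lay below WT, in a ratio that rests on the uncertain split of fragments between near-identical copies. UBP21 over UBP20 was 0.529 and 0.524 in UBP13oe, 0.598 and 0.559 in ubp12ubp13, 0.431 and 0.497 in cry2-1 and 0.449 and 0.379 in CRY2oe, against 0.408 and 0.352 in WT. Here CRY2oe overlapped with WT and the other genotypes lay above it. UCH2 over UCH1 was 2.63 and 2.66 in UBP13oe, 2.36 and 2.315 in ubp12ubp13, 2.245 and 1.98 in cry2-1 and 2.12 and 1.95 in CRY2oe, against 2.24 and 1.80 in WT. Both UBP13oe and ubp12ubp13 lay above WT, and cry2-1 and CRY2oe overlapped with it. UBP4 over UBP3 was 0.193 and 0.177 in UBP13oe, 0.208 and 0.204 in ubp12ubp13, 0.187 and 0.209 in cry2-1 and 0.218 and 0.201 in CRY2oe, against 0.189 and 0.169 in WT. The ubp12ubp13 and CRY2oe ratios lay above WT, and those of UBP13oe and cry2-1 overlapped with it. UBP7 over UBP6 was 0.203 and 0.195 in UBP13oe, 0.179 and 0.2261 in ubp12ubp13, 0.2298 and 0.256 in cry2-1 and 0.271 and 0.2055 in CRY2oe, against 0.2263 and 0.245 in WT. The UBP13oe ratios lay below WT, as did those of ubp12ubp13, the second by a narrow margin, and cry2-1 and CRY2oe overlapped with WT.

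**Figure D4:**
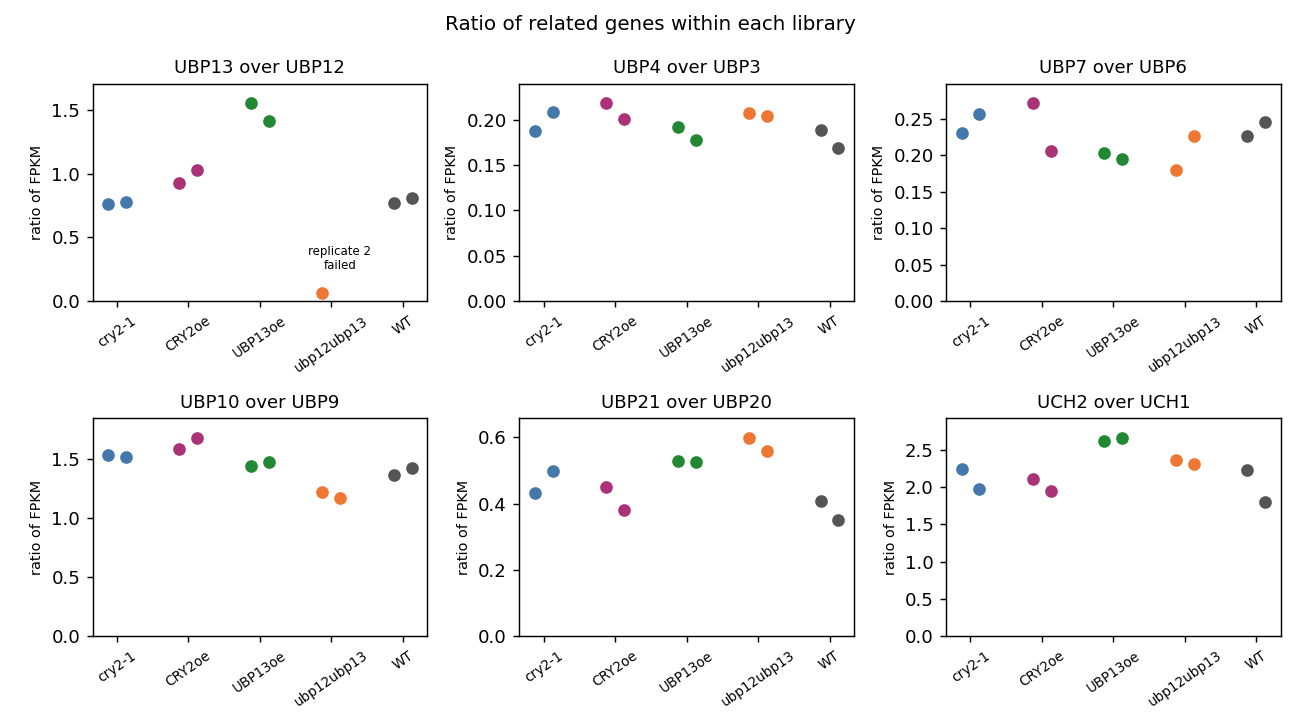
Ratio of FPKM within each library for 6 pairs of close relatives, by genotype, with 1 point a library. UBP13 over UBP12 is above 1 in both UBP13oe libraries and in CRY2oe replicate 2. UBP10 over UBP9, an uncertain split between near-identical copies, is lowest in ubp12ubp13 at 1.22 and 1.17.

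Comparisons without WT set the lines with more and with less of a gene against each other. In UBP13oe against ubp12ubp13, 6 members rose and 2 fell in UBP13oe (32.1% and 20.8% of all genes), or 4 and 5 on rescaled values (26.4% and 25.9%). On rescaled values alone, UBP15 (-0.16, adjusted p = 0.0445), UBP19 (-0.18, adjusted p = 0.036) and UCH2 (-0.25, adjusted p = 0.015) fell. UBP13 was 67.6 ± 2.06 FPKM in UBP13oe, against 23.9 ± 0.416 FPKM in ubp12ubp13 (1.46 ± 0.05, adjusted p = 1.6e-06). UBP5 (0.31 ± 0.06, adjusted p = 0.00202), UBP10 (0.35 ± 0.06, adjusted p = 0.00213) and UBP23 (0.24 ± 0.04, adjusted p = 0.0023) rose in UBP13oe on both scales and without any single library. UBP2 and UBP3 also rose, calls lost on rescaling (adjusted p = 0.131 and 0.366). For UBP2 the call was lost without UBP13oe replicate 1 at 0.125, UBP13oe replicate 2 at 0.0606 or ubp12ubp13 replicate 1 at 0.137, and for UBP3 without CRY2oe replicate 1 at 0.0658, CRY2oe replicate 2 at 0.0658, UBP13oe replicate 1 at 0.0931, UBP13oe replicate 2 at 0.168, ubp12ubp13 replicate 1 at 0.0932 or ubp12ubp13 replicate 2 at 0.137. UCH1 fell (-0.32 ± 0.08, adjusted p = 0.0109), a call lost without UBP13oe replicate 1 at 0.0663 or ubp12ubp13 replicate 2 at 0.0677. The call for UBP12 (-3.10) has 1 library of ubp12ubp13 behind it and turned to 1.22 with the failed entry as 0 (adjusted p = 0.661).

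In CRY2oe against cry2-1, 0 members rose and 4 fell in CRY2oe (13.5% and 24.0% of all genes), and on rescaled values 3 rose and 1 fell (17.6% and 16.8%). The 3 that rose on rescaled values alone were UBP5 (0.23, adjusted p = 0.0141), UBP8 (0.17, adjusted p = 0.0449) and UBP23 (0.19, adjusted p = 0.0107). UBP12 fell in CRY2oe on both scales and without any single library (-0.46 ± 0.05, adjusted p = 0.000322), with 34.1 ± 1.27 FPKM in CRY2oe, against 47.3 ± 1.23 FPKM in cry2-1. With the failed entry as 0 this fold change did not move, but the call was lost to the larger common spread (adjusted p = 0.888). The falls of UBP6, UCH3 and UBP22 were lost on rescaling (adjusted p = 0.124, 0.0597 and 0.101). UBP6 was lost without cry2-1 replicate 1 at 0.0943, cry2-1 replicate 2 at 0.0509 or CRY2oe replicate 1 at 0.102, UCH3 without cry2-1 replicate 1 at 0.0974, cry2-1 replicate 2 at 0.0526, CRY2oe replicate 1 at 0.0607 or CRY2oe replicate 2 at 0.0883 and UBP22 without cry2-1 replicate 1 at 0.178, cry2-1 replicate 2 at 0.0757, CRY2oe replicate 1 at 0.0975, CRY2oe replicate 2 at 0.155, UBP13oe replicate 1 at 0.0582 or UBP13oe replicate 2 at 0.0582.

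The family's summed level, taken over 29 members without UBP12, was 409 and 412 FPKM in UBP13oe, 347 and 359 in ubp12ubp13, 397 and 387 in cry2-1 and 369 and 369 in CRY2oe, against 327 and 339 FPKM in WT. All other libraries lay above WT. On rescaled values the sums were 394 and 389 in UBP13oe, 349.8 and 359.5 in ubp12ubp13, 380.0 and 374 in cry2-1 and 375 and 374 in CRY2oe, against 351 and 359 in WT, and ubp12ubp13 and WT then overlapped. UBP13, which is overexpressed by design in UBP13oe and fell in ubp12ubp13, is part of these sums. Over the 28 members without UBP12 and UBP13, the sums were 340.1 and 346 FPKM in UBP13oe, 322 and 335 in ubp12ubp13, 359.7 and 351 in cry2-1 and 336 and 334 in CRY2oe, against 300.3 and 310.3 FPKM in WT, again with all other libraries above WT. On rescaled values these were 327 and 326 in UBP13oe, 325 and 336 in ubp12ubp13, 345 and 339 in cry2-1 and 342 and 339.6 in CRY2oe, against 322 and 329 in WT, so that UBP13oe and ubp12ubp13 overlapped with WT while cry2-1 and CRY2oe lay above it. The plastid genes took 9.06% and 9.58% of all FPKM in UBP13oe, 16.2% and 15.5% in ubp12ubp13, 16.9% and 17.6% in cry2-1 and 17.996% and 17.939% in CRY2oe, against 8.57% and 11.2% in WT. As a share of FPKM without plastid genes, the 29 members made up 0.0444% and 0.0445% in UBP13oe, 0.0401% and 0.0412% in ubp12ubp13, 0.0457% and 0.0447% in cry2-1 and 0.0419% and 0.0417% in CRY2oe, against 0.0374% and 0.0377% in WT. On this measure every other library also lay above WT, and the part of the plastid share in the family's values was not tested.

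Deubiquitinases also release ubiquitin from the precursors that cells make, and 9 such precursor genes were listed. In ubp12ubp13, all 5 polyubiquitin genes fell and all 4 genes that join ubiquitin to a ribosomal protein rose, and 3 rose and 5 fell on rescaled values. Of all genes, 34.6% rose and 22.2% fell there, or 28.5% and 27.7% on rescaled values. UBQ10 stood at 959 and 970.3 FPKM in ubp12ubp13, against 1690 and 1721 FPKM in WT (-0.82 ± 0.06, adjusted p = 9.15e-06). UBQ3 stood at 653 and 770.4 FPKM in ubp12ubp13, against 1709 and 2260 FPKM in WT (-1.47 ± 0.13, adjusted p = 4.1e-05). Neither gene's libraries overlapped with WT. UBQ5, a ubiquitin-extension gene, stood at 283 and 282 FPKM in ubp12ubp13, against 208 and 190.4 FPKM in WT (0.50 ± 0.05, adjusted p = 6.07e-05). UBQ1, also of that kind, had a rise (0.19 ± 0.06, adjusted p = 0.0258) that was lost on rescaling (adjusted p = 0.215) and without WT replicate 2 at 0.143, ubp12ubp13 replicate 1 at 0.109 or ubp12ubp13 replicate 2 at 0.0536. The other genotypes had fewer calls, with 2 rises and 0 falls in cry2-1, 2 and 2 in CRY2oe and 1 and 0 in UBP13oe, or 0 and 3, 0 and 4 and 0 and 4 on rescaled values. Of all genes, 31.7% rose and 11.8% fell in cry2-1, 16.5% and 9.63% in CRY2oe and 35.2% and 8.74% in UBP13oe. On rescaled values these shares were 16.8% and 20.2%, 11.1% and 14.8%, and 18.2% and 18.6%. Ubiquitin repeats are near-identical between these genes, so the split of fragments among them is uncertain.

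**Figure D5:**
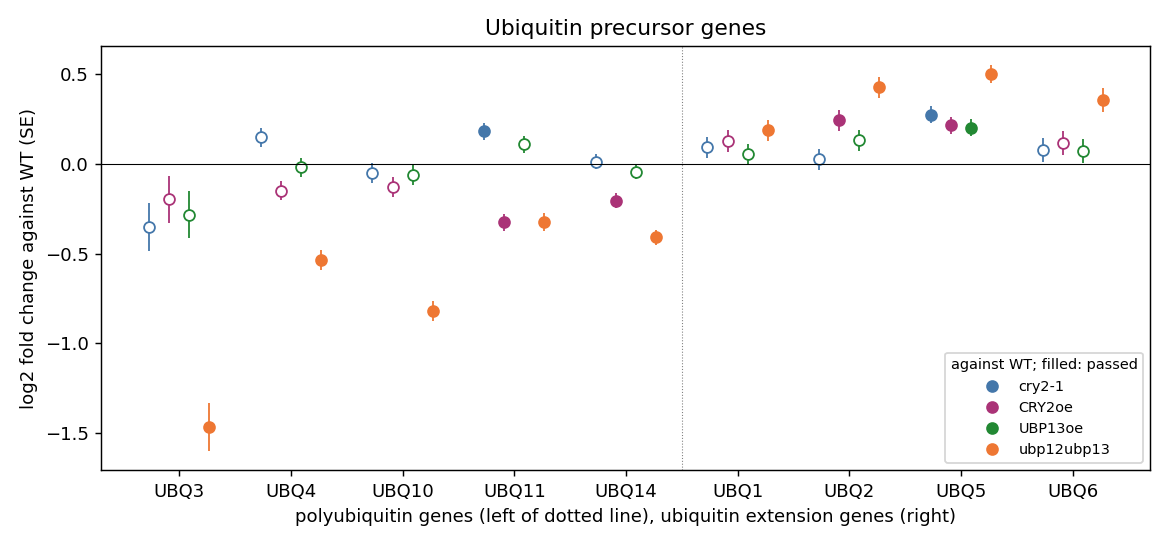
Log2 fold change of the 9 ubiquitin precursor genes in each of the 4 genotypes against WT, with standard errors and filled points for genes that passed the test, polyubiquitin genes left of the dotted line. In ubp12ubp13 the 5 polyubiquitin genes lie below 0, down to -1.47 for UBQ3, and the 4 extension genes above it, up to 0.50 for UBQ5.

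Deubiquitinases of other families, 21 genes of the OTU, Josephin and JAMM classes, were listed for comparison. Of these, 6 rose and 0 fell in UBP13oe, 4 and 2 in ubp12ubp13, 6 and 0 in cry2-1 and 1 and 0 in CRY2oe. Over all genes, the shares that rose and fell were 35.2% and 8.74% in UBP13oe, 34.6% and 22.2% in ubp12ubp13, 31.7% and 11.8% in cry2-1 and 16.5% and 9.63% in CRY2oe. On rescaled values 0 rose and 6 fell in UBP13oe, 2 and 3 in ubp12ubp13, 2 and 0 in cry2-1 and 0 and 1 in CRY2oe, so the direction in UBP13oe turned with the scale. The shares of all genes on that scale were 18.2% and 18.6% in UBP13oe, 28.5% and 27.7% in ubp12ubp13, 16.8% and 20.2% in cry2-1 and 11.1% and 14.8% in CRY2oe. In ubp12ubp13, OTU9 fell (-0.54 ± 0.09, adjusted p = 0.00127) and CSN5B, a subunit of the COP9 signalosome that removes the ubiquitin-like NEDD8 from cullins, rose (0.45 ± 0.11, adjusted p = 0.00762). OTU4 rose as well (0.42 ± 0.11, adjusted p = 0.0118), a call lost without WT replicate 1 at 0.0683 or ubp12ubp13 replicate 2 at 0.0513. Of 13 genes whose products are known or proposed partners of UBP12 and UBP13, 7 rose and 2 fell in UBP13oe, 1 and 6 in ubp12ubp13, 4 and 2 in cry2-1 and 3 and 2 in CRY2oe. On rescaled values 3 rose and 4 fell in UBP13oe, 0 and 7 in ubp12ubp13, 2 and 4 in cry2-1 and 3 and 3 in CRY2oe. These counts stand beside the same shares of all genes, and they include CRY2 itself, which the cry2-1 and CRY2oe genotypes alter by design and which fell in cry2-1 and rose in CRY2oe. The clock photoreceptor ZTL (-0.50 ± 0.05, adjusted p = 0.000101), CRY2 and the root growth factor receptor RGFR1 (-0.31 ± 0.06, adjusted p = 0.00268) were the partners that fell with the smallest adjusted p in ubp12ubp13.

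Other features of the libraries differed between the genotypes as well. The summed FPKM of 5 shoot markers, led by photosynthesis genes, was 12055 and 11592 in UBP13oe, 24276 and 23470 in ubp12ubp13, 7024 and 7280.2 in cry2-1 and 12024 and 11831 in CRY2oe, against 9738 and 8848 in WT. All 5 rose in ubp12ubp13, where 34.6% of all genes rose and 22.2% fell. For 5 root markers it was 2728 and 2902 in UBP13oe, 2316 and 2128 in cry2-1, 1827 and 1815 in ubp12ubp13 and 1446 and 1503 in CRY2oe, against 1686 and 1535 in WT. PYK10 made up most of this sum (1523 and 1392 FPKM in WT), and the sum does not stand for each marker. In ubp12ubp13, 2 of the 5 rose and 1 fell, or 1 and 1 on rescaled values. CASP1 had a mean of 70.7 FPKM there against 121 in WT, and EXP7 11.9 against 5.74. In cry2-1, 3 rose and 0 fell, or 3 and 1 on rescaled values. On both scales 3 rose and 0 fell in UBP13oe, and 0 and 1 in CRY2oe. The shares of all genes that rose were 31.7% in cry2-1, 35.2% in UBP13oe and 16.5% in CRY2oe. On rescaled values these were 16.8%, 18.2% and 11.1%, and 28.5% in ubp12ubp13. For 5 seed markers the summed FPKM was 3.175 and 2.49 in UBP13oe, 8.96 and 16.9 in ubp12ubp13, 6.78 and 7.135 in cry2-1 and 6.44 and 3.99 in CRY2oe, against 28.8 and 12.7 in WT. Of the 4 seed markers tested, 4 fell in UBP13oe, 1 in ubp12ubp13, 1 in cry2-1 and 2 in CRY2oe, on both scales. The shares of all genes that fell were 8.74%, 22.2%, 11.8% and 9.63% in that order, or 18.6%, 27.7%, 20.2% and 14.8% on rescaled values. The pollen markers, which seedlings should lack, summed to between 1.93 and 3.24 FPKM, with VGD1 and HTR10 listed at 0 throughout. ANX1, at 1.72 to 2.71 FPKM, made up most of these sums. The part that such differences play in the family's values was not tested.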

How the data were processed

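Poly(A) RNA of whole seedlings was sequenced with a directional library kit, per the labels' protocols. The authors used STAR (version not given) and Cufflinks 2.1.1 with TAIR10, per the submitters' processing notes, and deposited FPKM per gene for each library. The sources used here do not say whether counting used the strand, so fragments of overlapping genes cannot be told apart. Entries marked as failed or skipped (15 at 10 loci) were taken as missing. Depth came from the steps between low FPKM, 330 to 419 values a library from a pool of 5042 genes without introns. It was 15.9 to 31.2 M fragments, with 96.2% to 98.0% of values whole within 0.1 fragment. The depth was picked to make these same values whole, so that share is not a separate check. Deeper libraries give smaller counting errors for low genes.

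Genes with at least 1 FPKM in at least 2 libraries (19957) were tested as log2(FPKM + 1), a scale that understates changes of low genes, with limma 3.58.1 in R 4.3.3. A model of the limma-trend kind held a mean for each genotype over the 10 libraries and left 5 residual degrees of freedom. Each of 6 comparisons had two-sided p-values, adjusted by Benjamini-Hochberg over all its genes, and calls were made at 0.05. In simulations of 19947 genes, 66 or 67 genes were changed at each size and no other gene differed between genotypes. There 53.7% to 68.7% of changes of 0.5 on the log2 scale and 93.9% to 100.0% of changes of 2 were recovered, with 2.94% to 5.14% of calls false. Far more genes were called in the real comparisons against WT (5224 to 11344), so these rates do not carry over to them. Changes under 0.5 were not simulated, and most member changes were of that size. The alternatives tried were leaving out each library, failed estimates as 0, rescaling by the median of ratios, fitting only the libraries compared, a block for the replicate number, no variance trend, a pseudocount of 0.1, and either no filter or a mean of at least 5 FPKM. Gene positions are those of the files (TAIR10, written from 1). Sequences and their positions come from RefSeq on TAIR10.1, where 3 of 30 members had the same start and end as in the files.

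The members and lists were chosen with earlier results of these data known. All members are accounted for, and UBP12, UBP13, members called in at least 2 of 4 comparisons against WT and called members with a change of 0.5 or more on the log2 scale are given in full. From each other list up to 3 genes with the smallest adjusted p in ubp12ubp13 against WT are named.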

Additional observations from a re-analysis of the deposited data

How the results depend on the processing

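The tally held 72 member results, those called as deposited and all of UBP12 and UBP13, with 1287 values under the alternatives. Of these values, 1136 stayed on the same side of the threshold and 149 lost the call. The other 2 turned, both for UBP12 with the failed entry as 0 (-0.85 in ubp12ubp13 against WT and 1.22 in UBP13oe against ubp12ubp13). The cause was not tested, beyond the changed entry itself. A change of sign without a call was not counted as a turn. UBP12 in CRY2oe against WT had 1 such change (-0.03, or up to 0.0051 with 1 library left out). Members not called as deposited are outside the tally, so calls they gained are not in it. On rescaled values 9 members were called in cry2-1, 5 in CRY2oe and 10 in UBP13oe against WT, of which 7, 4 and 9 were also called as deposited. A fit of only the libraries compared called 3 members and 2824 of all genes in CRY2oe against WT, from fewer libraries. Leaving out 1 library gave 1 to 10 members and 2144 to 5131 genes in CRY2oe against WT, 11 to 17 members in cry2-1 against WT, 5593 to 8805 genes in UBP13oe against WT, 5 to 8 members in UBP13oe against ubp12ubp13 and 1 to 6 in CRY2oe against cry2-1. A genotype left with 1 library was assumed to vary like the others. Same-numbered libraries deviated together little (correlations of -0.09 to 0.15 over 10 pairs of genotypes), so the numbers do not pair them and not every library correlated best with its own number. With the replicate block, 16 members were called in cry2-1, 9 in CRY2oe, 15 in UBP13oe and 16 in ubp12ubp13 against WT, 7 in UBP13oe against ubp12ubp13 and 3 in CRY2oe against cry2-1. The calls without a counterpart there were UBP17 in UBP13oe (adjusted p = 0.0558) and UBP19 in CRY2oe (0.057) against WT, UBP3 in UBP13oe against ubp12ubp13 (0.0558) and UBP22 in CRY2oe against cry2-1 (0.0529), all by limma. The pseudocount, the filters and the variance without trend moved no count by more than 1.5 times. Depth limits UBP1 and UBP11, and 2 libraries a genotype limit all tests.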
